A study of Mus musculus with 30 samples.

Results

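The 38 genes described here encode actins, nonmuscle myosin II and the proteins that coat, bundle, anchor and regulate actin filaments in stress fibers. They were chosen by name, as a list of gene symbols that uses no measured value, although earlier results of these data were known when the list was drawn up. For each symbol, the estimated counts and the TPM values of its transcripts (read counts divided by transcript length and scaled to a fixed sum in each library) were summed in each of 14 RNA-seq libraries. The members are 38 of the 21761 symbols with a protein-coding transcript, and all 38 passed the filter on low counts in every comparison.

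The study asked how brain endothelial cells (ECs) change when they leave the brain and grow in culture. Acute ECs were the GFP-positive cells sorted from brains of adult male Tie2-GFP mice, in which the endothelial Tie2 promoter drives GFP (2 libraries), and the GFP-negative cells of these sorts were sequenced too (2 libraries). The acute EC libraries carry the study's adult brain label, under which it combined EC data from cerebrum and cerebellum. The cerebellum data had been published before. WT cultures were primary brain ECs that had been selected with puromycin and grown for 8 days (6 libraries), and stabilized cultures were made alike from Ctnnb1flex3/+;Pdgfb-CreER;Tie2-GFP mice, in which Cre from the endothelial Pdgfb promoter removes an exon of the beta-catenin gene and leaves a protein that is not degraded (4 libraries). ATAC-seq, which reads out accessible chromatin, covered acute ECs (2 libraries), WT cultures (6) and stabilized cultures (2).

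The WT group is not uniform. In RNA-seq and per the Methods, WT replicates 1 and 2 were C57BL/6J cells isolated by method A (papain digestion), and WT replicates 3 to 6 were Ctnnb1flex3/+;Tie2-GFP cells isolated by method B (Dounce homogenization with collagenase and dispase), so that these WT cells carried the floxed allele and the GFP transgene without Cre. Stabilized replicates 1 and 2 were made by method A and replicates 3 and 4 by method B, all from male mice. Another passage of the study's text gives method A to 4 of the 6 WT RNA-seq wells, and the Methods were followed here because they tie method B to the mouse line that is labelled for WT replicates 3 to 6. In ATAC-seq, WT replicates 1 and 2 were made by method A, and WT replicates 3 to 6 and both stabilized libraries by method B. According to the Methods, Ctnnb1flex3/+ mice with and without Cre were given 4-hydroxytamoxifen as pups, and brains of several mice were pooled for each isolation. Replicates are wells, 2 from each experiment, so that p-values do not measure the spread between animals. They hold the spread between experiments only where a group spans more than 1 experiment. Where each group is 2 wells of 1 experiment, they measure the spread between wells alone. This applies to the comparison of methods in WT cultures, to stabilized against WT wells within a method, and to the interaction. For RNA-seq, cultures were sequenced as paired reads of 36 cycles, or of 150 cycles at another facility for WT replicates 3 and 4, whereas acute ECs and GFP-negative cells were sequenced as single reads of 75 cycles. Sums over a gene do not show the removal of 1 exon, so that stabilization itself was not checked here.

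Stress fibers are contractile bundles in which myosin II pulls on actin filaments, tropomyosins and calponin family proteins coat the filaments, and alpha-actinin and filamin cross-link them. Their ends are held at focal adhesions, where talin, vinculin and zyxin couple filaments to integrins, and in endothelium the tension they carry sets cell shape and the tightness of junctions. Many of these genes are textbook targets of serum response factor (SRF), which binds a promoter sequence called the CArG box together with MRTF cofactors, and MRTF is held back in the cytoplasm by free actin monomers.

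The libraries held 24284843 to 94686456 estimated counts each, and no pair of replicates agreed within sampling noise (chi-square of at least 7.48 per gene). Nuclear protein-coding genes took 26.5% to 63.2% of the deposited TPM in 12 of the libraries but 94.3% and 94.2% in WT replicates 3 and 4, so levels are given here as rescaled TPM, which sums to 1000000 over nuclear protein-coding genes. The endothelial label held, since the 8 endothelial markers summed to 8079 and 9564 rescaled TPM in acute ECs, 2364 to 6610 in WT cultures and 3172 to 7169 in stabilized cultures, against 24.4 and 76.9 in GFP-negative cells. The acute ECs also held markers of other cells: the 10 pericyte markers summed to 1475 and 1743 (Rgs5 at 653 and 794), the 8 smooth muscle markers to 257 and 431, and the 3 erythrocyte markers to 14732 and 77754. In WT cultures the same sums were 6.95 to 27.4 for pericytes, 65.4 to 321 for smooth muscle and 0 to 1.56 for erythrocytes. The part of these cells in the results below was not tested, and in bulk libraries fewer cells of a type and less RNA per cell cannot be told apart.

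The 38 members took a larger share of the transcriptome in every culture than in either acute EC library. They held 3.17% and 3.93% of rescaled TPM in acute ECs and 5.05% and 6.02% in GFP-negative cells. The share in method A cultures was 5.77% and 5.88% for WT and 5.68% and 5.69% for stabilized wells, and in method B cultures it was 8.22% to 10.7% for WT and 9.75% and 10.2% for stabilized wells. The highest share was thus found in the method B wells of 36 cycles, and the method A wells lay between the GFP-negative libraries. In acute ECs and cultures, most of the share came from actins and their monomer-binding proteins. These alone held 1.86% and 2.28% in acute ECs, 3.36% to 3.64% in method A cultures and 5.80% to 7.16% in method B cultures. In GFP-negative cells they held 1.97% and 2.22%, and tropomyosins and calponin family proteins with caldesmon held 1.73% and 2.12%. Levels spanned several orders of magnitude. In WT cultures the thymosin gene Tmsb4x was at 21904 (lowest), 23745 (median) and 28307 (highest). Actb, the main cytoplasmic actin, was at 8057 (lowest), 17276 (median) and 26325 (highest) there. At the low end, Fhl2, a LIM-domain cofactor, was at 1.24 and 2.02 in acute ECs.

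**Figure D1:**
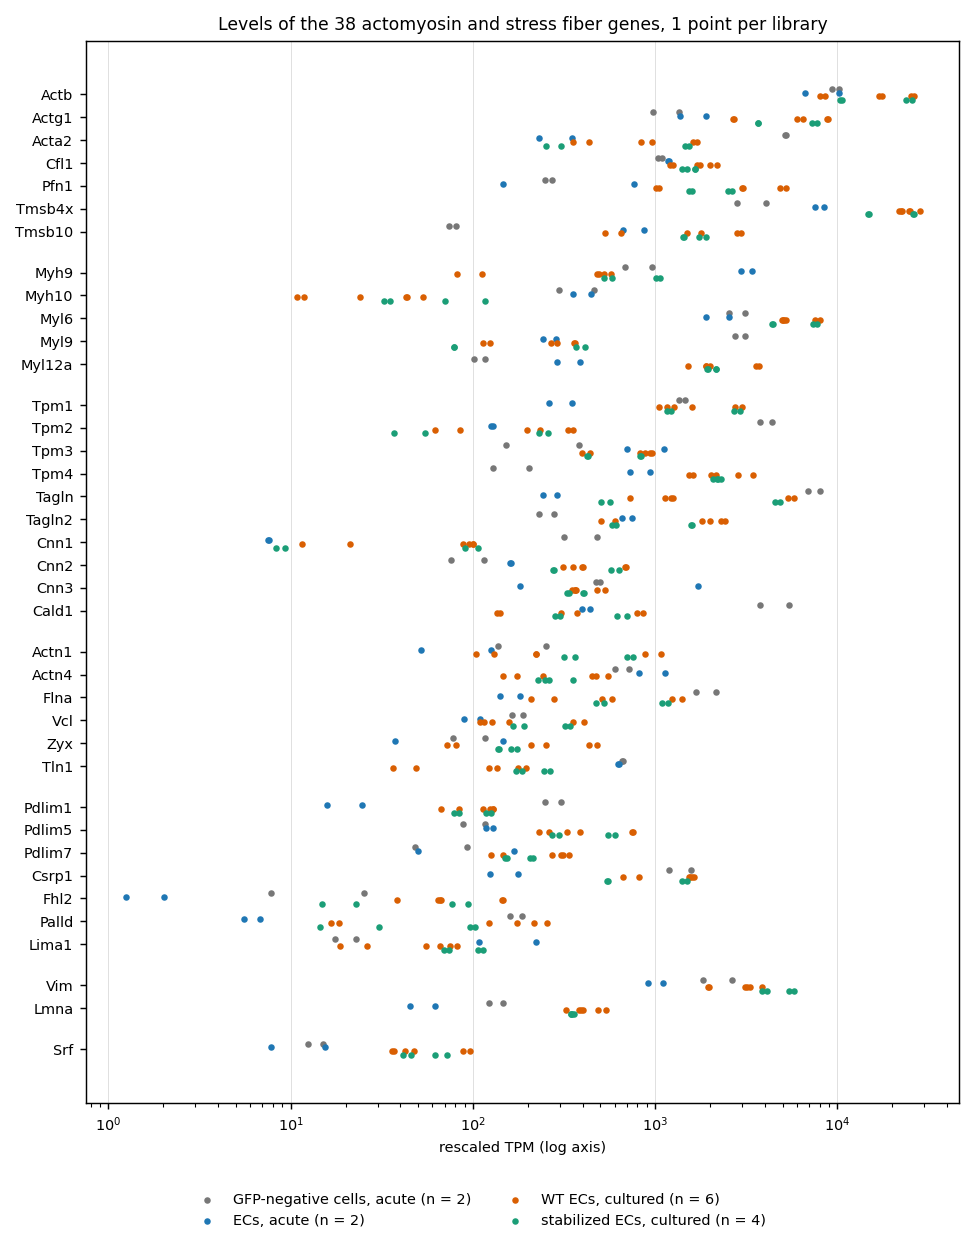
Level of each of the 38 genes in rescaled TPM (log axis), 1 point per library, colored by group and ordered by role. Acute ECs (2 libraries) lie to the left of all 6 WT cultures for 21 genes and to the right of all 6 for 5 genes.

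WT cultures were compared with acute ECs to ask which of these genes differ after 8 days in culture. A gene was called when its adjusted p was under 0.05 over all tested genes (edgeR quasi-likelihood test, Benjamini-Hochberg), its fold change was over 2 and each library of the group where it was higher had a deposited TPM of 5 or more. On counts, 23 of the 38 members were called higher in WT cultures and 1 was called lower, beside 13.6% of all 13757 tested genes called higher and 10.3% called lower. The median log2 fold change of the members was 2.03, against 0.098 over all tested genes. All 6 WT cultures lay above both acute libraries for 21 members (30.1% of all genes), and below both for 5 (22.1% of all genes), in rescaled TPM.

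Read format differs between these groups, and it moved with the lengths that Salmon used. The mean effective length of a member, weighted over its transcripts, was 2.83 times as long in 36-cycle cultures as in acute ECs in the median (1.28 to 15.6 times), against 2.03 times over 10641 genes. For 15 members the most abundant transcript was the same in all 10 cultures and another one in both acute libraries. With the effective length as an offset, 18 members were called higher and 5 lower in WT cultures, beside 12.9% and 13.2% of all genes, and the median log2 fold change was 1.46. Calls on counts, with the length offset and in rescaled TPM coincided for 17 members that were higher and 1 that was lower, and where the 2 scales give another call for a gene, both are stated below. Culture and read type cannot be told apart in these data. The paper trimmed the longest paired reads, from a culture sample, to the formats of the other libraries and quantified them again with Salmon. It reports that gene expression was highly correlated between the formats. Values for individual members are not given there, and the trimming was not repeated here. Reads of near-identical copies (Actb and Actg1, Acta2 and the other muscle actins, and the thymosins with their pseudogenes) can be split between genes by the quantification, so that the values of these members are uncertain to that extent.

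The calls also rest on the 2 acute libraries, which differ from each other for some members. Cnn3, a calponin, was at 1717 and 181 rescaled TPM in acute ECs, and Pfn1, the monomer-binding protein profilin, was at 763 and 147. Zyx was at 146 and 37.3 and Pdlim7 at 169 and 49.9, again with replicate 1 the higher one. Without acute replicate 1, 11 members were called higher, beside 9.21% of all genes, and without acute replicate 2, 6 were, beside 10.3%. By experiment, 19 members were called higher and 3 lower in WT replicates 1 and 2, beside 15.2% and 13.3% of all genes. In replicates 3 and 4 the numbers were 27 higher and 4 lower, beside 21.3% and 15.3% of all genes, and in replicates 5 and 6 they were 30 higher and 1 lower, beside 15.7% and 11.8%. After adding up the wells within every experiment, 16 higher and 1 lower passed the test, beside 9% and 5.97% of all genes.

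**Figure D2:**
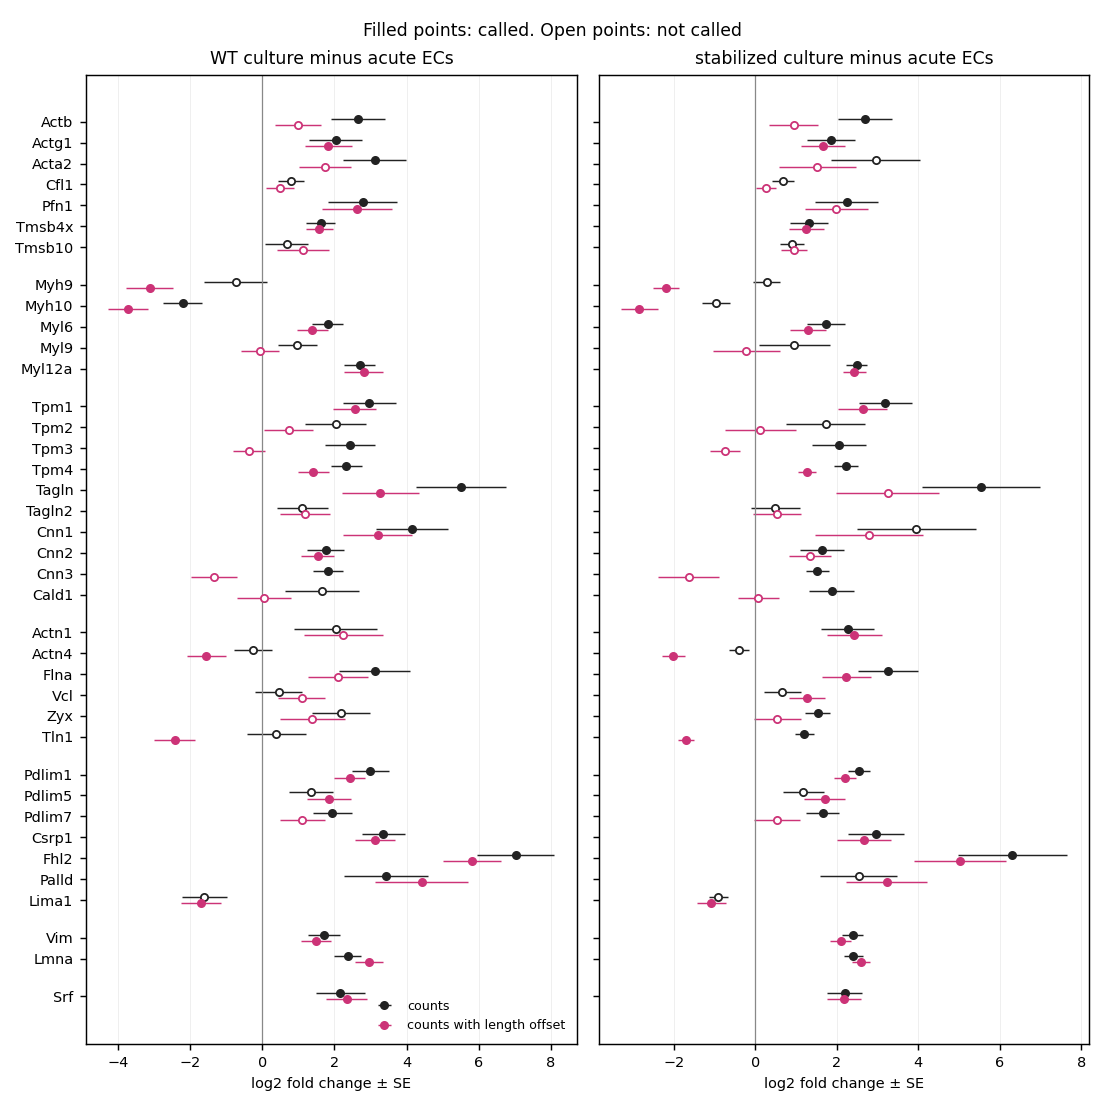
Log2 fold change ± SE of each member in WT cultures (left) and stabilized cultures (right) against the same 2 acute EC libraries, on counts and with the effective length as an offset, with filled points for called genes. In WT cultures 23 members were called higher on counts and 18 with the offset. With the offset Myh9, Myh10, Actn4, Tln1 and Lima1 were called lower, and Cnn3, Tpm3 and Myl9 also lie below 0.

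Among the 7 actins and monomer-binding proteins, 5 were called higher on counts and 3 with the length offset. Actb was at 10194 and 6638 rescaled TPM in acute ECs and at 8057 (lowest), 17276 (median) and 26325 (highest) in WT cultures. Its log2 fold change was 2.66 ± 0.75 (SE, adjusted p = 0.0181) on counts and 0.99 ± 0.63 (SE, adjusted p = 0.222) with the offset. The method A wells lay inside the acute range and the other 4 above it. Actg1, the other cytoplasmic actin, was at 1892 and 1364 in acute ECs and at 2679.6 (lowest), 6253 (median) and 8854 (highest) in WT cultures. It rose by 2.03 ± 0.73 (SE, adjusted p = 0.0469) on counts and by 1.83 ± 0.66 (SE, adjusted p = 0.0461) with the offset, and the groups did not overlap. Acta2, the smooth muscle actin, was at 349 and 231 in acute ECs and at 356 (lowest), 901 (median) and 1702 (highest) in WT cultures, so that the lowest well lay just above the higher acute library. Its log2 fold change was 3.11 ± 0.86 (SE, adjusted p = 0.0172) on counts and 1.73 ± 0.73 (SE, adjusted p = 0.0776) with the offset. Myh11, the smooth muscle myosin heavy chain, was at 77.4 and 48.6 in acute ECs and at 0.533 to 7.75 in WT cultures. The list of 8 smooth muscle markers that holds Myh11 did not follow it in every well. Its sum was 257 and 431 in acute ECs and 65.4 to 321 in WT cultures, with 272 to 321 in WT replicates 3 and 4. Pfn1 was at 1010.1 (lowest), 3004 (median) and 5202 (highest) in WT cultures, above both acute libraries, and Tmsb4x, the monomer-sequestering thymosin beta 4, was at 7579 and 8396 in acute ECs and at 21904 (lowest), 23745 (median) and 28307 (highest) in WT cultures. Pfn1 rose by 2.78 ± 0.96 (SE, adjusted p = 0.0407) and Tmsb4x by 1.62 ± 0.39 (SE, adjusted p = 0.00991) on counts, and both were also called with the offset. Cfl1, the filament-severing cofilin, and Tmsb10, another thymosin, did not pass the test on counts, where Cfl1 was at 0.79 ± 0.36 (SE, adjusted p = 0.103) and Tmsb10 at 0.67 ± 0.59 (SE, adjusted p = 0.377) on the log2 scale.

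Of the 5 myosin II genes, 2 were called higher and 1 lower on counts, and 2 higher and 2 lower with the offset. Myl12a and Myl6, regulatory and essential light chains, were called higher on both scales. Myl12a was at 387 and 289.99 in acute ECs and at 1518 (lowest), 1951 (median) and 3721 (highest) in WT cultures, and it rose by 2.696 ± 0.44 (SE, adjusted p = 0.00157) on counts. Myl6 was at 2528 and 1902 in acute ECs and at 4943 (lowest), 5144 (median) and 8009.7 (highest) in WT cultures, and it rose by 1.82 ± 0.43 (SE, adjusted p = 0.00899). The groups did not overlap for either gene. Myh10, the heavy chain of nonmuscle myosin IIB, was at 355 and 446 in acute ECs and at 10.9 (lowest), 33.4 (median) and 52.9 (highest) in WT cultures. Its log2 fold change was -2.21 ± 0.55 (SE, adjusted p = 0.0105) on counts and -3.73 ± 0.54 (SE, adjusted p = 0.000848) with the offset, and it was the only member called lower on both scales. Myh9, the heavy chain of myosin IIA, was called lower with the offset alone, with 3384 and 2966 rescaled TPM in acute ECs and 81.6 (lowest), 485 (median) and 570.2 (highest) in WT cultures. Its log2 fold change was -0.74 ± 0.87 (SE, adjusted p = 0.51) on counts and -3.12 ± 0.66 (SE, adjusted p = 0.0046) with the offset. The protein-coding transcript Myh9-201 took 7.89% and 8.90% of Myh9 TPM in acute ECs and 93.8% to 97.2% in WT cultures, and the mean effective length of Myh9 was 11.5 times as long in 36-cycle cultures. Myl9, the light chain of smooth muscle and nonmuscle myosin, did not pass the test on either scale (0.97 ± 0.54 (SE, adjusted p = 0.172) on counts and -0.061 ± 0.52 (SE, adjusted p = 0.932) with the offset).

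Among the 10 tropomyosins and calponin family proteins, caldesmon included, 7 were called higher on counts and 5 with the length offset (Tpm1, Tpm4, Tagln, Cnn1 and Cnn2). Tagln, or transgelin, a filament-coating protein best known from smooth muscle, was at 289 and 242 in acute ECs and at 725 (lowest), 1236 (median) and 5786 (highest) in WT cultures. It rose by 5.51 ± 1.24 (SE, adjusted p = 0.00704) on counts and by 3.27 ± 1.06 (SE, adjusted p = 0.0311) with the offset. Cnn1, the smooth muscle calponin, was at 7.49 and 7.58 in acute ECs and at 11.5 (lowest), 91.6 (median) and 99.7 (highest) in WT cultures. It rose by 4.16 ± 0.999 (SE, adjusted p = 0.00937) on counts and by 3.198 ± 0.96 (SE, adjusted p = 0.0223) with the offset, with 211 and 147 counts behind the acute values. For both genes all WT wells lay above both acute libraries, and the method A wells were the lowest of the 6. Tpm1, which gives the long tropomyosins of stable filaments, was at 262 and 350.4 in acute ECs and at 1050.3 (lowest), 1428 (median) and 2989.9 (highest) in WT cultures, a rise of 2.97 ± 0.73 (SE, adjusted p = 0.0105) on counts. Tpm4 was at 731 and 940.1 in acute ECs and at 1536 (lowest), 2096 (median) and 3446 (highest) in WT cultures, a rise of 2.33 ± 0.44 (SE, adjusted p = 0.00307). For both tropomyosins the groups were apart. Cnn2, a calponin of nonmuscle cells, was at 163 and 159.9 in acute ECs and at 312 (lowest), 399.8 (median) and 691 (highest) in WT cultures, again with no overlap, and rose by 1.76 ± 0.51 (SE, adjusted p = 0.0208). Cnn3 and Tpm3 were called higher on counts alone and turned sign with the offset, from 1.82 to -1.34 for Cnn3 and from 2.44 to -0.37 for Tpm3. Cald1, the filament-binding regulator caldesmon, did not pass the test, with 439 and 399 in acute ECs inside the range of 136 (lowest), 340.2 (median) and 863 (highest) in WT cultures. Tpm2 and Tagln2 were not called either (2.04 ± 0.85 (SE, adjusted p = 0.077) and 1.11 ± 0.71 (SE, adjusted p = 0.224) on counts).

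The 6 cross-linkers and adhesion plaque proteins held the fewest calls, 1 higher on counts, and none higher but 2 lower with the offset. Flna, the large cross-linker filamin A, was at 180.2 and 140.4 in acute ECs and at 209 (lowest), 544 (median) and 1401 (highest) in WT cultures, with no overlap. Its log2 fold change was 3.12 ± 0.98 (SE, adjusted p = 0.0284) on counts and 2.101 ± 0.84 (SE, adjusted p = 0.0656) with the offset. Tln1, or talin, which links integrins to actin, was at 637 and 623 in acute ECs and at 36.5 (lowest), 129 (median) and 195 (highest) in WT cultures. It was at 0.39 ± 0.82 (SE, adjusted p = 0.717) on counts and was called lower with the offset, at -2.43 ± 0.57 (SE, adjusted p = 0.00743), and its effective length differed the most of all members, 15.6 times. Actn4, an alpha-actinin, was likewise called lower with the offset alone (-1.56 ± 0.54 (SE, adjusted p = 0.0395), against -0.26 ± 0.52 (SE, adjusted p = 0.704) on counts). Vcl, or vinculin, was at 89.7 and 109 in acute ECs and at 109 (lowest), 142 (median) and 405 (highest) in WT cultures, and neither it nor Actn1 or Zyx passed the test on either scale.

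Of the 7 LIM and PDZ-LIM proteins, palladin included, 5 were called higher on counts, and 4 of them (Fhl2, Palld, Csrp1 and Pdlim1) were called with the offset too. Fhl2 had the largest fold change of the members, from 1.24 and 2.02 in acute ECs to 38.4 (lowest), 66.2 (median) and 146 (highest) in WT cultures. It rose by 7.03 ± 1.07 (SE, adjusted p = 0.00117) on counts and by 5.804 ± 0.80 (SE, adjusted p = 0.000651) with the offset, where the acute values rest on 55 and 9 counts. Palld, which encodes palladin, a stress fiber scaffold, was at 6.83 and 5.53 in acute ECs and at 16.6 (lowest), 149 (median) and 255 (highest) in WT cultures, and rose by 3.43 ± 1.18 (SE, adjusted p = 0.0401) on counts. No WT well overlapped the acute libraries for either gene, and for Palld the method A wells were the nearest to them. Csrp1, a cysteine-rich LIM protein of actin bundles, was at 124 and 176 in acute ECs and at 663 (lowest), 1550.2 (median) and 1632 (highest) in WT cultures, and rose by 3.36 ± 0.59 (SE, adjusted p = 0.00228). Pdlim1, which binds alpha-actinin, was at 15.8 and 24.7 in acute ECs and at 67.02 (lowest), 119 (median) and 129.6 (highest) in WT cultures, and rose by 2.996 ± 0.51 (SE, adjusted p = 0.0019). Pdlim7 was called on counts only (1.94 ± 0.55 (SE, adjusted p = 0.0188), against 1.11 ± 0.63 (SE, adjusted p = 0.174) with the offset), and Pdlim5, at 128 and 118 in acute ECs and 229.5 (lowest), 359 (median) and 752 (highest) in WT cultures, with the offset only (1.86 ± 0.61 (SE, adjusted p = 0.0334), against 1.34 ± 0.61 (SE, adjusted p = 0.103) on counts). Lima1, an actin-bundling LIM protein, went the other way, from 223 and 109 in acute ECs to 18.6 (lowest), 60.5 (median) and 81.9 (highest) in WT cultures. It was called lower with the offset (-1.702 ± 0.56 (SE, adjusted p = 0.0316)) and not on counts (-1.61 ± 0.63 (SE, adjusted p = 0.0615)).

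The last 3 members were called higher on both scales. Lmna, which encodes the lamins A and C of the nuclear lamina, was at 45.3 and 61.9 in acute ECs and at 323 (lowest), 399 (median) and 537 (highest) in WT cultures, and rose by 2.37 ± 0.38 (SE, adjusted p = 0.0014) on counts. Vim, the intermediate filament protein vimentin, was at 914 and 1111 in acute ECs and at 1954 (lowest), 3158 (median) and 3849.5 (highest) in WT cultures, and rose by 1.71 ± 0.45 (SE, adjusted p = 0.0142). Srf itself was at 7.85 and 15.5 in acute ECs and at 35.8 (lowest), 44.9 (median) and 96.3 (highest) in WT cultures, and rose by 2.16 ± 0.68 (SE, adjusted p = 0.0289). In each of the 3 genes the lowest WT well was above the higher acute library.

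Stabilized cultures were compared with the same 2 acute EC libraries, so that the 2 comparisons share their controls. In stabilized cultures 24 members were called higher and 0 lower on counts, beside 15.1% and 11% of 13862 genes, and 17 were called higher and 5 lower with the offset, beside 14.4% and 14.6%. At an unadjusted p under 0.05, 32 members and 8694 of the 13862 genes passed, and DESeq2 called 1 member lower on counts. The median log2 fold change was 1.86 on counts and 1.28 with the offset. Method A wells alone gave 18 members higher (14.5% of all genes) and method B wells alone 31 (14.8%), while leaving out acute replicate 2 gave 10 (15.1%). Fhl2 was at 14.8, 22.9, 94.2 and 76.98 in stabilized replicates 1 to 4 and rose by 6.31 ± 1.34 (SE, adjusted p = 0.00738). Vim was at 5781, 5415, 3843 and 4089 and rose by 2.39 ± 0.26 (SE, adjusted p = 0.000607). Flna was at 472, 526, 1173 and 1090.1 and rose by 3.25 ± 0.74 (SE, adjusted p = 0.00933) on counts and by 2.23 ± 0.60 (SE, adjusted p = 0.0188) with the offset. All 4 stabilized wells lay above both acute libraries for these 3 genes, and for 24 of the 38 members in all (39.7% of all genes), and below both for 4 (24.7% of all genes). Tln1 was called in opposite directions on the 2 scales, at 1.204 ± 0.23 (SE, adjusted p = 0.00469) on counts and -1.700 ± 0.21 (SE, adjusted p = 0.00108) with the offset, and its level was 245, 264, 186 and 173, below both acute libraries. Acta2 was at 252, 305, 1542 and 1459, so that the method A wells lay within the acute range, and its log2 fold change of 2.95 ± 1.102 (SE, adjusted p = 0.0564) did not pass the test. Tagln was at 506, 564, 4874 and 4562 and was called on counts only (5.54 ± 1.44 (SE, adjusted p = 0.0159), against 3.25 ± 1.26 (SE, adjusted p = 0.0662) with the offset).

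WT cultures differed more from each other in these genes than in most. The highest of the 6 WT wells was 3.50 times the lowest in the median member, against 2.19 times over 12714 genes (with 1 added to each rescaled TPM), whereas the largest difference between wells of 1 experiment was 1.23 times in the median member and 1.19 times over all genes. To compare experiments at 1 read format, WT replicates 5 and 6 (method B) were set against replicates 1 and 2 (method A), all of 36 cycles. On counts, 24 members were called higher by method B and 1 lower, beside 8.46% and 6.35% of 12727 genes, and with the length offset 24 were called higher and 0 lower, beside 8.68% and 6.44%. When all 14 libraries were in 1 fit, 12 members were called higher, beside 6.34% of 15717 genes. With the offset, the only member called lower on counts, Tpm3, kept an adjusted p of 0.000354 but its fold change was under 2. Both method B wells lay above both method A wells for 32 members (36.4% of all genes) and below for 2 (47% of all genes). In stabilized cultures the method B wells lay above for 26 members, all among the 32 (23.6% of all genes), and below for 10 (58.1% of all genes), of which 5 (Cnn3, Lima1, Myl12a, Pdlim1 and Tln1) had the opposite order in WT cultures. Each method is 1 experiment per genotype, and in WT cells method and mouse strain differ together, so that method, strain and day cannot be told apart. If WT replicates 5 and 6 were made by method A, as that other passage has it, then the values given here for method B against method A in WT cells compare the strain and the experiment and not the method. The comparison of stabilized and WT wells within method B, given below, would then differ in method as well. The fit with method as a term and the interaction of stabilization with method would carry wrong labels.

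**Figure D3:**
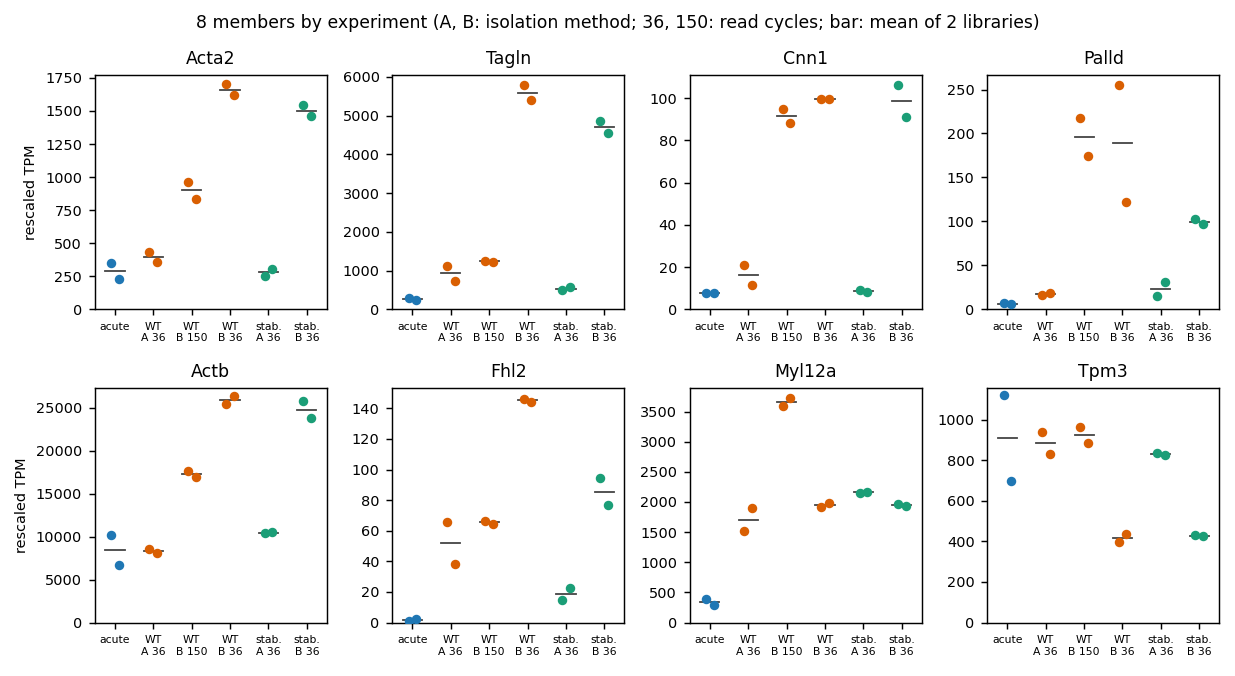
Rescaled TPM of 8 members by experiment (points: libraries, bars: mean of 2), with the isolation method (A or B) and the read cycles (36 or 150) under each pair. Acta2, Tagln, Cnn1, Palld and Actb are higher in method B than in method A wells of both genotypes, Myl12a is highest in the 150-cycle wells, and Tpm3 is lowest in method B wells of 36 cycles.

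Cald1 had one of the largest differences, with 136 and 140.1 rescaled TPM in method A wells, 375 and 305 in the 150-cycle method B wells and 796 and 863 in the 36-cycle method B wells. Its log2 difference between methods at 36 cycles was 2.89 ± 0.11 (SE, adjusted p = 9.34e-07). Palld was at 16.6 and 18.5, then 218 and 174, then 255 and 123 in the same order, a difference of 3.55 ± 0.30 (SE, adjusted p = 2.69e-05). Within each experiment the wells of Cald1 were close together, while the 36-cycle method B wells of Palld differed from each other by more than a factor of 2. Tagln was at 1128 and 725, 1249 and 1223 and 5786 and 5393, a difference of 2.75 ± 0.19 (SE, adjusted p = 1.10e-05). Acta2 was at 434 and 356, 964 and 837 and 1702 and 1621, a difference of 2.41 ± 0.13 (SE, adjusted p = 3.27e-06). Actn1, an alpha-actinin, was at 222 and 221, 131 and 104 and 1077 and 879, a difference of 2.303 ± 0.11 (SE, adjusted p = 2.22e-06). For Tagln and Acta2 the 150-cycle wells lay between the others, whereas for Actn1 they lay below the method A wells. Vim (-0.085 ± 0.11 (SE, adjusted p = 0.501)), Myh9 (0.25 ± 0.11 (SE, adjusted p = 0.0679)), Myh10 (0.20 ± 0.13 (SE, adjusted p = 0.213)) and Myl12a (0.24 ± 0.094 (SE, adjusted p = 0.0518)) did not pass the test. Tpm3 was at 939 and 829 by method A and 395 and 437 by method B, and its transcript Tpm3-212, annotated as a retained intron, took 67.4% and 69.7% of Tpm3 TPM in the latter wells and 0 in method A wells.

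Markers moved between the same wells. The endothelial markers summed to 6361 and 6610 in WT method A wells and to 2440 and 2464 in 36-cycle method B wells, with 7 of 8 lower by method B. Pecam1 was at 1878 and 2036 by method A against 532 and 543 by method B, while Cdh5 was at 385 and 485 against 735 and 652. Thus the junction cadherin ran against the rest of the endothelial list. The smooth muscle markers summed to 65.4 and 68.0 by method A and to 133 and 149 by method B, with 7 of 8 higher, and Myh11 was at 2.24 and 2.68 by method A and 7.75 and 7.01 by method B. The pericyte markers summed to 13.5 and 15.6 by method A and to 24.5 and 27.4 by method B, with 3 of 10 higher and 2 lower. The fibroblast markers summed to 45.0 and 60.8 by method A and to 16.5 and 27.5 by method B, with 0 of 6 higher and 4 lower. The proliferation markers summed to 61.2 and 73.6 by method A and to 10.9 and 11.9 by method B, and the part of these differences in the members' values was not tested.

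Stabilized and WT cultures were compared to ask whether these genes differ in culture between cells of the stabilized beta-catenin genotype and WT cells. Over all 10 libraries, 0 of the 38 members were called in either direction, and 0 of 12935 genes were (0% higher and 0% lower). At an unadjusted p under 0.05, 1421 genes and 2 members passed, and DESeq2 called 15 genes higher and 3 lower, none of them a member. The median log2 fold change was -0.15 in the members and -0.065 over all genes. Because the experiments differ by method, the comparison was repeated within each method at 36 cycles. Within method A, 3 members were called higher in stabilized wells (Cald1, Myh10 and Tmsb10) and 2 lower (Cnn1 and Fhl2), beside 5.39% and 0.92% of all genes. By adjusted p alone, 15 members were higher and 13 lower, beside 29.4% and 26.9% of 12827 genes. Within method B none were called, beside 1.09% and 0.289% of all genes, and by adjusted p alone 1 member was higher and 17 were lower, beside 20% and 17.2% of 12809 genes. The method A wells also differ in strain, since the WT cells were C57BL/6J. With method as a term in 1 fit, Fhl2 was called lower and no other member was called (0.519% of all genes higher and 0.0775% lower).

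Fhl2 was lower in stabilized wells by both methods. It was at 65.9 and 38.4 in WT and 14.8 and 22.9 in stabilized wells by method A, and at 146 and 144 in WT and 94.2 and 76.98 in stabilized wells by method B, with no overlap within a method. The log2 differences were -1.52 ± 0.27 (SE, adjusted p = 0.00398) and -0.77 ± 0.094 (SE, adjusted p = 0.00193). By adjusted p alone, Tagln, Tpm2, Cnn2 and Pdlim5 were also lower within both methods, and Vim was higher within both. Vim was at 3107 and 3849.5 in WT and 5781 and 5415 in stabilized wells by method A, and at 3303 and 3208 in WT and 3843 and 4089 in stabilized wells by method B. Tpm2 was at 84.8 and 62.2 in WT and 36.9 and 54.4 in stabilized wells by method A, and at 333 and 356 in WT and 258 and 230.4 in stabilized wells by method B. Apart from that of Fhl2 by method A, each of these differences was under a factor of 2.

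The difference between stabilized and WT wells was then compared between the methods. The interaction of stabilization with method passed an adjusted p of 0.05 in 26 of the 38 members, beside 50% of 13328 genes. The difference was lower by method B than by method A in 18 of them and higher in 8, and 16 members, all among the 26, also passed with the length offset, beside 39.8% of all genes. Cald1 was at 136 and 140.1 in WT and 283 and 301 in stabilized wells by method A, and at 796 and 863 in WT and 698 and 618 in stabilized wells by method B. Its log2 difference was 1.098 ± 0.078 (SE, adjusted p = 0.000451) by method A and -0.41 ± 0.075 (SE, adjusted p = 0.00776) by method B, so that it had opposite signs. Zyx was at 80.8 and 72.2 in WT and 139 and 138 in stabilized wells by method A, and at 253 and 209 in WT and 175 and 163 in stabilized wells by method B, with a difference of 0.81 ± 0.067 (SE, adjusted p = 0.000574) by the former and -0.46 ± 0.10 (SE, adjusted p = 0.0144) by the latter. Actg1, Actn1, Pfn1 and Pdlim1 also passed in opposite directions, higher in stabilized wells by method A and lower by method B. Cnn1 was at 21.1 and 11.5 in WT and 9.26 and 8.304 in stabilized wells by method A, and at 99.7 and 99.7 in WT and 106 and 91.03 in stabilized wells by method B, which gives -1.08 ± 0.21 (SE, adjusted p = 0.00518) within method A but -0.01 ± 0.10 (SE, adjusted p = 0.946) within method B. Tmsb10 was at 528 and 652 in WT and 1430.3 and 1445 in stabilized wells by method A, and at 1504 and 1794 in WT and 1748 and 1898 in stabilized wells by method B, with a difference of 1.24 ± 0.10 (SE, adjusted p = 0.000565) by the former and 0.13 ± 0.086 (SE, adjusted p = 0.269) by the latter. The stabilized method A wells of Tmsb10 thus lay just below the method B wells, and those of Cnn1 lay just above acute ECs. Smooth muscle markers summed to 161 and 167 in stabilized method A wells against 65.4 and 68.0 in WT, and to 129 and 130 in stabilized method B wells against 133 and 149. By method A, 4 of the 8 smooth muscle markers were above and 2 below their WT levels in both stabilized wells, and by method B 1 was above and 3 were below. Endothelial markers summed to 6838 and 7169 in stabilized method A wells against 6361 and 6610 in WT (4 of 8 above and 1 below), and to 3172 and 3353 in stabilized method B wells against 2440 and 2464 (6 above and 0 below). Proliferation markers summed to 67.6 and 71.5 against 61.2 and 73.6 by method A (1 of 3 above and 1 below), and to 24.1 and 29.6 against 10.9 and 11.9 by method B (3 above and 0 below), and the part of these markers in the members' values was not tested.

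**Figure D4:**
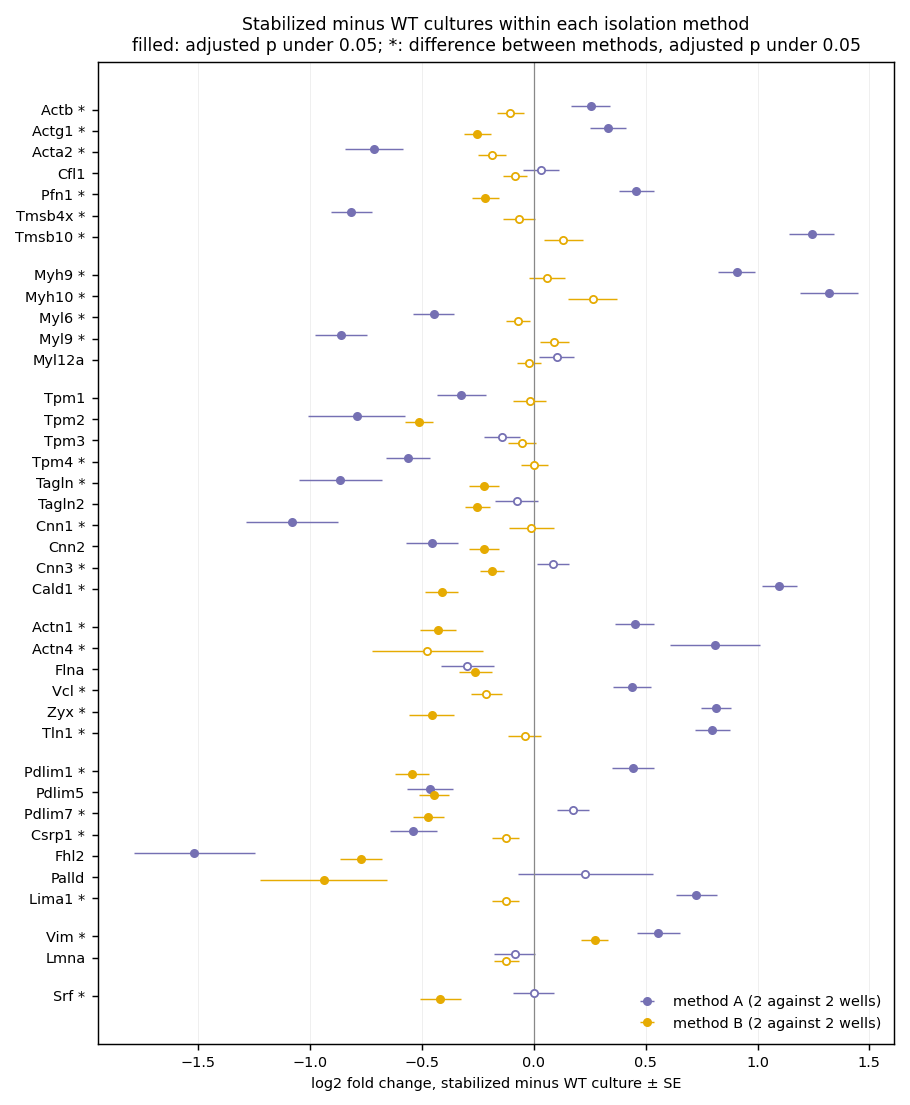
Log2 fold change ± SE of stabilized against WT cultures for each member within isolation method A and within method B (2 wells against 2 each), with filled points for adjusted p under 0.05 and asterisks for members whose difference changed with the method. Within method A, 15 members are filled above 0 and 13 below, and within method B 1 above and 17 below.

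Acute ECs were also set against the GFP-negative cells of the same sorts, which are the other cells of the brain. Here 9 members were called higher in ECs and 11 lower on counts, beside 8.34% and 7.59% of 15080 genes, and 7 and 11 with the length offset (4.4% and 5.97%). The members lower in ECs were Acta2, Tagln, Cnn1, Cald1, Tpm1, Tpm2, Myl9, Flna, Palld, Csrp1 and Pdlim1, most of which are known from smooth muscle. Acta2 was at 5201 and 5161 in GFP-negative cells and at 349 and 231 in ECs, and its log2 difference was -3.78 ± 0.38 (SE, adjusted p = 0.00206). Cnn1 was at 315 and 481 and at 7.49 and 7.58, a difference of -5.01 ± 0.43 (SE, adjusted p = 0.00163). Tpm2 was at 3774 and 4372 and at 126 and 129, a difference of -4.15 ± 0.33 (SE, adjusted p = 0.00161). In all of these the 2 EC libraries lay far below both GFP-negative libraries. Myh11 was at 1093 and 1233 in GFP-negative cells, and the smooth muscle markers summed to 1826 and 2288 there, against 257 and 431 in ECs. Pericyte markers differed less, with 1570 and 2307 in GFP-negative cells and 1475 and 1743 in ECs, and the part of mural cells in the EC values was not tested. The members higher in ECs on counts were Tmsb10, Tpm4, Lima1, Myh9, Myl12a, Tagln2, Tmsb4x, Tpm3 and Myh10. Tmsb10 was at 80.9 and 73.8 in GFP-negative cells and at 867 and 666 in ECs, a difference of 3.91 ± 0.41 (SE, adjusted p = 0.00231). Lima1 was at 22.9 and 17.6 and at 223 and 109, a difference of 2.95 ± 0.41 (SE, adjusted p = 0.00489). Myh9 was at 681 and 966 and at 3384 and 2966, a difference of 2.63 ± 0.39 (SE, adjusted p = 0.00612). Neither Lima1 nor Myh9 overlapped between the sorted groups, while the calls of Myh10 and Tpm3 were lost with the length offset.

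Promoter sequences were taken from RefSeq on GRCm38.p6 for 36 of the 38 members (47 promoters), each with 250 bases before and 50 bases after the annotated start. Actb and Tagln had none there and were not searched. A CArG box, searched on both strands, was found in 8 of the 36 members (22.2%), against 1.81% of 27025 genes. Only the strict form was searched, CC and GG around 6 bases of A or T, with no mismatch. Looser forms were not searched, so that a member counted without a box, such as Acta2, may still hold one of them. By promoter, 19.1% of the members' promoters and 1.63% of all 32851 promoters held one. The 8 members were Actg1, Cnn2, Fhl2, Lima1, Myl6, Myl9, Srf and Vcl. Of the other motifs, searched on both strands unless stated, GGGCGG (the GC box) was found in 83.3% of members and 38.2% of genes, CATTCC (bound by TEAD factors) in 30.6% and 16.6%, TGANTCA (bound by AP-1) in 16.7% and 8.97%, and TATAAA (the TATA box), which was searched on the strand of the gene only, in 8.33% and 9.77%. Of these, only TATAAA can lie wholly within a CArG box. A match describes the letters and is not a binding site, and these shares were not tested. The promoters of 5 members are shown because they span the roles of filament, motor, adhesion plaque, LIM cofactor and transcription factor, with the CArG boxes in capitals. The box begins 90 bases before the start in Actg1, 82 and 62 bases before it in Srf, 227 in Vcl, 161 in Myl9 and 31 in the Fhl2 promoter shown. Another Fhl2 promoter, not shown, holds a box 96 bases before its start.
Actg1 promoter (chr11:120348446-120348745, minus strand): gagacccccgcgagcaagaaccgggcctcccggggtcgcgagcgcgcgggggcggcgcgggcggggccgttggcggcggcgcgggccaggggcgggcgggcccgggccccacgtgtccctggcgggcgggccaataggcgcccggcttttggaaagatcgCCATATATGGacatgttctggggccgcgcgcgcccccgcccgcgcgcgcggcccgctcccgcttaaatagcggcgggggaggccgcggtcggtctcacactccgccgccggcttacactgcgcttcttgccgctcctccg
Srf promoter (chr17:46556113-46556412, minus strand): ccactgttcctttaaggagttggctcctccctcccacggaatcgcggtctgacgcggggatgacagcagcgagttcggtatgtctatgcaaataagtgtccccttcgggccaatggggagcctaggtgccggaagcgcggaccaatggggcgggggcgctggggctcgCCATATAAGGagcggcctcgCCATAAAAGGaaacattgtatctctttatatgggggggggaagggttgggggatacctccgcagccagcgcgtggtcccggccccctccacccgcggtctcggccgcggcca
Vcl promoter (chr14:20929148-20929447, plus strand): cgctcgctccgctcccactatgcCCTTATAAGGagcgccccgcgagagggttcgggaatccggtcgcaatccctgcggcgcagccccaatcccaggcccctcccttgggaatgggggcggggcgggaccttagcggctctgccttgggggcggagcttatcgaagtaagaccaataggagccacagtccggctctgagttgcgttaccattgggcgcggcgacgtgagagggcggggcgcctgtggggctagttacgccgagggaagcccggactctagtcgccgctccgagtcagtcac
Myl9 promoter (chr2:156775214-156775513, plus strand): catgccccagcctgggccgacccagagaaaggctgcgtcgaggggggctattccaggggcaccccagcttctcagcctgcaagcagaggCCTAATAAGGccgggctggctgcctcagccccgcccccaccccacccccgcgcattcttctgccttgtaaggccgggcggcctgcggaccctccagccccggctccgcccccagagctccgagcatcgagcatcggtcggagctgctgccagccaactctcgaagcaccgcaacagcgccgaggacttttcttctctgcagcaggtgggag
Fhl2 promoter (chr1:43163912-43164211, minus strand): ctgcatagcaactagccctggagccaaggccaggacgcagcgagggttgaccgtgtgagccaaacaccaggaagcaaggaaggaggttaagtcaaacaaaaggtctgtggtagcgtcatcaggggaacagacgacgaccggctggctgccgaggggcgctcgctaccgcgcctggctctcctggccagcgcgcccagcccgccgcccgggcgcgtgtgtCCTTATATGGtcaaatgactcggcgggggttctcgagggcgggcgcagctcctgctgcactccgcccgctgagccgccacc

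Accessible chromatin, which the choice of genes did not use, was compared through the peaks that were called in each ATAC-seq library, and no test was run on it. A peak lay within 1000 bases of an annotated start in 34 of 38 members in both acute libraries, in 33 to 37 in WT cultures and in 36 and 37 in stabilized cultures, against 53.6% to 65% of 21829 genes in the 10 libraries. The number of peaks differed between libraries, from 31844 and 37453 in acute ECs, through 50450 and 33152 in WT replicates 1 and 2, to 79160 to 98840 in the other cultures, so that a missing peak in the former does not show closed chromatin. Peaks within the members and 10000 bases upstream made up 3.12 to 3.65 of every 1000 peaks in all libraries.

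The start sites of Tagln, Acta2 and Cnn1 had no peak in acute ECs. Tagln had a peak in 7 of the 8 cultures, with an enrichment over local background of 4.31 in WT replicate 1, none in replicate 2, 7.05, 8.21, 10.7 and 10.8 in WT replicates 3 to 6 and 7.18 and 9.15 in the stabilized cultures. Acta2 had a peak in 6, with 5.57, 5.63, 6.76 and 6.68 in WT replicates 3 to 6 and 5.91 and 5.08 in the stabilized cultures. Cnn1 had one in 4, at 4.14 in WT replicate 3, 4.25 and 6.45 in replicates 5 and 6 and 3.88 in stabilized replicate 2. In all 3 genes the peak was missing from WT replicate 2 as well as from acute ECs, and for Acta2 and Cnn1 also from replicate 1, which are the method A wells and the libraries with fewer peaks. The strongest peak at a start site of Palld was at 3.94 and 4.85 in acute ECs, 14.4 and 13.5 in WT replicates 1 and 2, 18.4, 17.5, 20.1 and 20.3 in replicates 3 to 6 and 18.6 and 19.3 in the stabilized cultures. Another Palld promoter had no peak in acute ECs and a peak in 7 cultures, and a further one had no peak in any library. Over the gene, Palld held 3 peaks in each acute library, 22 and 10 in WT replicates 1 and 2 and 37 to 44 in the other cultures. At the Fhl2 promoter printed above, the enrichment was 4.21 and 3.02 in acute ECs and 11.4, 9.07, 11.05, 11.9, 13.2 and 12.6 in WT replicates 1 to 6. It was 11.1 and 10.1 in the stabilized cultures, so that every culture was above both acute libraries. The other Fhl2 promoter with a CArG box had no peak in any library. A promoter of Lima1 with a CArG box had no peak in acute ECs and one in all 8 cultures, at 6.44 to 11.0, although Lima1 was not called higher in culture on either scale. Most other start sites had a peak in every library. The Srf promoter was at 10.9 and 9.72 in acute ECs and at 7.54 to 11.7 in WT cultures. Among members with a start site peak, the median enrichment was 11.01 and 10.75 in acute ECs and lower in every culture (7.75 to 10.71). Over all genes with such a peak it was 12.8 and 12.4 in acute ECs and 9.15 to 14.9 in cultures. Unlike Fhl2 and Palld, Tmsb4x was at 10.96 and 11.01 in acute ECs and at 4.24 to 6.58 in cultures. Flna was at 12.3 and 11.3 in acute ECs and at 4.73 to 7.65 in cultures, although both genes were called higher on counts. Cnn2, called higher in WT cultures, had a start site peak only in acute ECs (3.09 and 2.75).

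**Figure D5:**
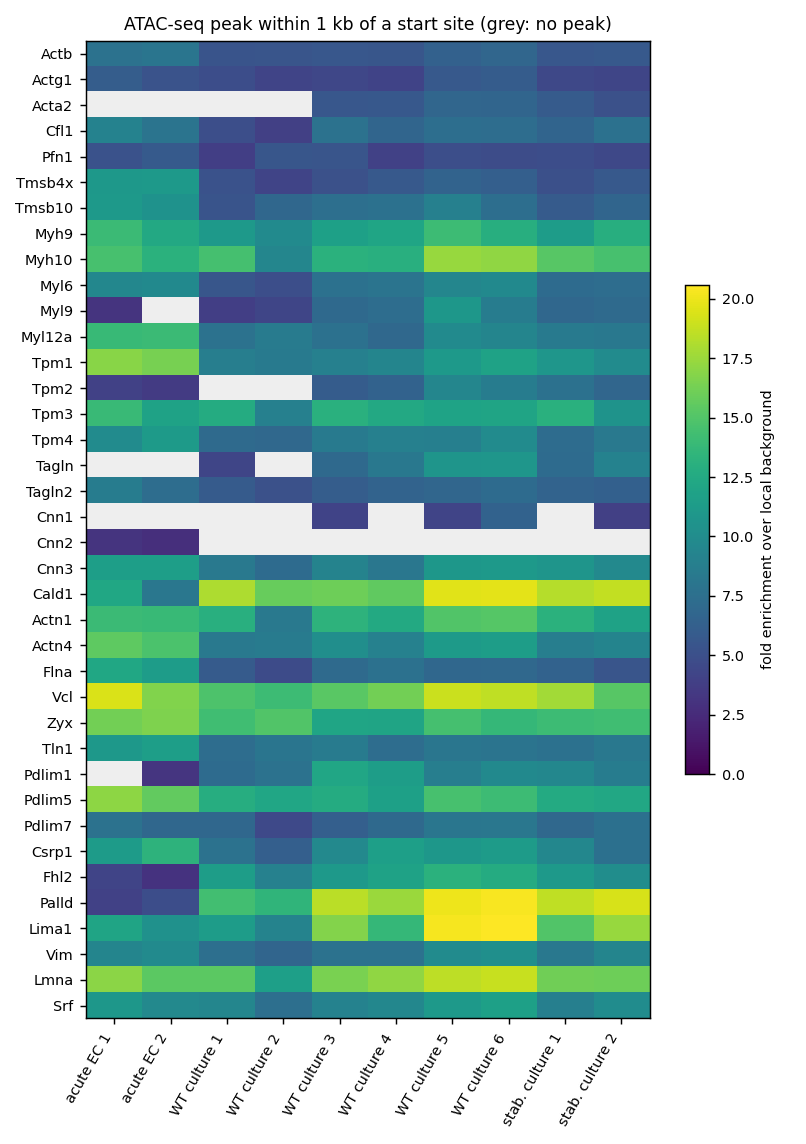
Fold enrichment over local background of the strongest ATAC-seq peak within 1000 bases of a start site of each member (rows) in each library (columns), with grey where no peak was called. Acta2, Tagln and Cnn1 are grey in both acute libraries, and Fhl2 and Palld are darker there than in all 8 cultures.

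Genes around the members were followed in 2 further lists, here in WT cultures against acute ECs on counts, beside the 13.6% and 10.3% of all genes given above. Of 23 paralogs of the members, 6 were called higher, led by Flnc and Fhl1, and 2 lower, Myh11 and Csrp2. Of 26 adhesion and stress fiber partners, 9 were called higher, led by Dbn1 and Itga5, and 5 lower, led by Parvb and Tns2. Between methods in WT cultures, 13 of these 26 partners were called higher by method B and 1 lower, beside 8.46% and 6.35% of all genes. Itga5, an integrin of fibronectin adhesions, was at 37.5 and 55.8 by method A and 847 and 527 by method B (4.10 ± 0.27 (SE), adjusted p = 8.08e-06), with acute ECs at 11.8 and 8.09. Neither list held a called gene between stabilized and WT cultures over all 10 libraries.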

How the data were processed

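RNA-seq of 14 libraries and ATAC-seq of 10 were used, and groups were taken from the sample titles. The authors quantified transcripts with Salmon 0.14.0 and deposited an estimated count (NumReads), a TPM and an effective length for each transcript. For ATAC-seq, the authors aligned reads to mm10 (HISAT2 2.1.0) and ran MACS2 2.1.2 on every library by itself, and the deposited peak lists hold a fold enrichment over local background, −log10 p and q values and a score (10 times −log10 q). Counts and TPM were summed per gene symbol, counts were rounded, and levels were rescaled to 1000000 over nuclear protein-coding genes. Genes kept by filterByExpr were scaled by TMM and compared by the quasi-likelihood test of edgeR 4.0.16 (R 4.3.3), with Benjamini-Hochberg adjustment over all tested genes. The SE given with a log2 fold change was derived from that test, as its absolute value divided by the square root of the F statistic. The length offset was the effective length averaged over a gene's transcripts. DESeq2 1.42.0, limma 3.58.1, other scalings, filters, single experiments and left-out libraries were tried as alternatives, of which those on rescaled TPM, on 36 cycles only and on the libraries of the block without it were added after the data were seen. All 38 members were eligible to be named, and from the further lists the 2 called genes with the greatest fold change on each side. The members and lists were chosen with earlier results of these data known. Same-numbered libraries did not pair. The edgeR step was tested on simulated counts with 200 changed genes. Libraries held 24284843 to 94686456 counts. Another gene list is not reported here. Promoters came from RefSeq.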

Additional observations from a re-analysis of the deposited data

Results flagged for a closer look

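For 26 members the log2 difference between stabilized and WT cultures differed between the isolation methods (edgeR quasi-likelihood test of the interaction, adjusted p under 0.05 over all tested genes), beside 50% of all 13328 tested genes. Given as method B minus method A, the 18 that were lower by method B were -1.52 for Cald1, -1.29 for Actn4, -1.28 for Zyx, -1.12 for Tmsb10, -1.07 for Myh10, -0.997 for Pdlim1, -0.89 for Actn1, -0.86 for Lima1 and -0.86 for Myh9. The rest of these were -0.85 for Tln1, -0.68 for Pfn1, -0.66 for Vcl, -0.65 for Pdlim7, -0.59 for Actg1, -0.43 for Srf, -0.37 for Actb, -0.29 for Vim and -0.28 for Cnn3. The 8 that were higher by method B were 1.05 for Cnn1, 0.94 for Myl9, 0.74 for Tmsb4x, 0.63 for Tagln, 0.56 for Tpm4, 0.52 for Acta2, 0.40 for Csrp1 and 0.37 for Myl6. Each method was 1 experiment of 2 wells per genotype, and WT wells of method A also differed in strain, so that method, strain and day cannot be told apart. Of 76 groups of 4 or 6 libraries (the WT and the stabilized cultures for each member), none held a library far from the rest by Dixon's test. Because the wells come in pairs from 1 experiment, this test could hardly flag an experiment that differs from the others. Its rate of about 1 in 20 groups by chance holds for independent libraries, which these are not.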

How the results depend on the processing

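Of 5206 repeats of the members' values under other settings, 4532 kept their direction and their side of the threshold. Another 165 kept direction but passed only under the alternative, and 248 kept it but no longer passed. In 236 the sign turned with a call in neither setting, and in 25 it turned with a call in at least 1 of them. For WT cultures against acute ECs, 1 member was called lower on counts, and this number was 2 by DESeq2, 2 with protein-coding transcripts only, 2 with all 14 libraries in 1 fit and 2 at 36 cycles only. It was 5 with the length offset, 3 by limma on log2(TPM + 1), 3 on log2(TPM + 0.1) and 5 on log2(rescaled TPM + 1), and 3 in WT replicates 1 and 2 and 4 in replicates 3 and 4. Leaving out 1 library at a time gave 6 to 25 members higher and 0 to 2 lower, where the 6 came without acute replicate 2 and 11 without acute replicate 1.

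For stabilized cultures against the same acute ECs, 0 were called lower on counts, 1 by DESeq2, 5 with the length offset, 2 with protein-coding transcripts only, 3 by limma on log2(TPM + 1), 3 on log2(TPM + 0.1), 4 on log2(rescaled TPM + 1), 2 by adjusted p alone and 2 in method B wells. Leaving out 1 library gave 10 to 26 higher and 0 to 1 lower, with the 10 again without acute replicate 2. For stabilized against WT cultures, method A alone gave 3 higher and 2 lower, method as a term gave 1 lower, and leaving out 1 library gave 0 in both directions. For method B against method A, 12 were higher with all 14 libraries in 1 fit, and 0 were lower with the length offset and 2 by adjusted p alone. Leaving out 1 library gave 23 to 24 higher there, 7 to 12 higher and 11 lower for ECs against GFP-negative cells, and 19 to 28 for the interaction, of which 16 passed with the length offset.

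In WT cultures against acute ECs, the log2 fold change turned sign with the length offset for Cnn3 (-1.34), Tln1 (-2.43) and Tpm3 (-0.37), and for Myl9 (-0.061), which was called on neither scale. By limma, Tln1 was at -2.05 on log2(TPM + 1) and -2.07 on log2(TPM + 0.1), and on log2(rescaled TPM + 1) Cnn3 was at -0.46, Tln1 at -2.63 and Tpm3 at -0.34, while in WT replicates 3 and 4 alone Tln1 was at -1.78. In stabilized cultures against acute ECs, the offset gave -1.63 for Cnn3, -2.19 for Myh9, -1.70 for Tln1 and -0.74 for Tpm3, and -0.22 for Myl9, again called on neither scale. By limma, these 4 were at -0.19, -1.64, -1.13 and -0.15 on log2(TPM + 1), at -0.19, -1.65, -1.14 and -0.15 on log2(TPM + 0.1), and at -0.61, -2.07, -1.55 and -0.57 on log2(rescaled TPM + 1). The effective lengths moved with these sign changes, and the cause was not tested further.

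With the replicate number as a block, 3 members were called lower in WT cultures than in acute ECs, as in the same libraries without the block (3), and 2 were called higher in stabilized than in WT cultures, against 1 without it. Same-numbered stabilized and WT libraries deviated together with r of 0.560, 0.575, 0.0565 and 0.129, while WT replicate 2 correlated better with stabilized replicate 1 (0.630), so that the numbers were not taken to pair the samples. The interaction and the comparison of methods could not be fitted with the block.

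The 2 acute libraries limit every comparison with culture, and counts of the low members in them are few. Wells of 1 isolation share their animals.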
